A study of Caenorhabditis elegans with 2 samples.

Results

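The V0 sector is the membrane-embedded part of the vacuolar ATPase, and its 10 subunit genes in Caenorhabditis elegans are vha-1, vha-2, vha-3, vha-4, vha-5, vha-6, vha-7, vha-16, vha-17 and unc-32. They were chosen by name, as 10 of the 19973 protein-coding genes on the 6 nuclear chromosomes of WBcel235, and the rule for membership used no measured value. The family itself was chosen with earlier results of these data known. The data are chromatin immunoprecipitation sequencing (ChIP-seq) of whole L4 hermaphrodites of strain OP433, genotype unc-119(tm4063) III; wgIs433, whose transgene expresses HLH-30, a transcription factor, fused at its C terminus to GFP-FLAG. Both samples are biological replicates of 1 group, precipitated with an antibody against GFP. There was no second genotype, treatment or stage, so no comparison of conditions exists. All tissues of the animal are mixed in each sample, and the factor mapped is the tagged transgene product.

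The vacuolar ATPase pumps protons into lysosomes, endosomes and secretory vesicles, and across some plasma membranes. Its cytosolic V1 sector hydrolyses ATP and turns a ring of proteolipid c subunits in V0, which carries protons past the a subunit. The d subunit couples the ring to the central stalk, and e is a small membrane subunit. HLH-30 is the worm counterpart of mammalian TFEB, which is known to activate lysosome and proton pump genes through an extended E-box with the core CACGTG.

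A peak was given to a gene if its summit lay inside the gene or up to 5 kb upstream of the gene's 5′ end. By this rule 6 of the 10 V0 genes had a peak, against 37.8% of all protein-coding genes. Of the c and c″ ring genes 3 of 4 had one (vha-1, vha-2 and vha-3, but not vha-4), and with only 1 kb upstream vha-2 and vha-3 had none. Of the a subunit genes 1 of 4 had one, unc-32, and in replicate 2 alone 3 of 4 did, with vha-5 and vha-7. Both remaining genes, vha-16 for d and vha-17 for e, had one. Together these 6 genes held 6 distinct peaks, because vha-1 and vha-2 shared one and unc-32 had 2. All 6 peaks lay upstream of their V0 gene, and 0 of 10 V0 genes held a summit inside the gene, against 8.08% of all protein-coding genes. With 10 genes and 1 group there is no test over samples, so these shares are descriptions.

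**Figure D1:**
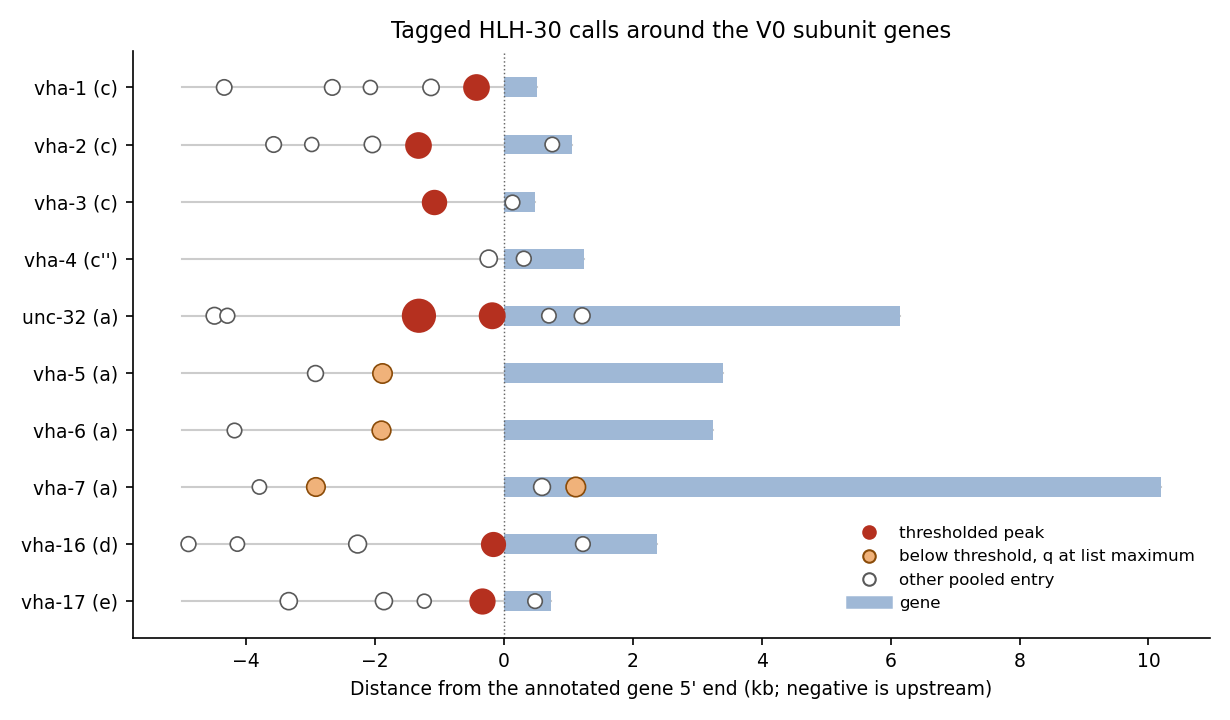
Position of every call of the pooled list in the window of each V0 gene, in kb from the annotated 5′ end (dotted line, upstream to the left). Bars are the genes, filled red points are the thresholded peaks, orange points are entries below the threshold with the list's highest q-value, open points are the other entries, and point size grows with pooled signal; every red point lies upstream of its gene.

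The sequences under the summits are shown because none of the 6 V0 peaks held CACGTG or CACATG, E-box forms that factors of this family are known to bind. The windows reach 50 bases to each side of the summit on ce11, are read from the RefSeq genome in the direction of the V0 gene, 5′ to 3′, and carry any E-box of the form CANNTG in capitals. The first is the distal unc-32 peak (chrIII:8904246-8904346, plus strand), the next the proximal unc-32 peak (chrIII:8905383-8905483, plus strand), then the shared peak of vha-1 and vha-2 (chrIII:9780778-9780878, plus strand) and the vha-17 peak (chrIV:9321404-9321504, plus strand).
unc-32 distal: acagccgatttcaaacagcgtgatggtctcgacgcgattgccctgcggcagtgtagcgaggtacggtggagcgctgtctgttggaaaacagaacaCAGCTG
unc-32 proximal: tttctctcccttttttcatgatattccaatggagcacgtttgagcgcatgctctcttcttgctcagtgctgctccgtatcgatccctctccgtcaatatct
vha-1 and vha-2: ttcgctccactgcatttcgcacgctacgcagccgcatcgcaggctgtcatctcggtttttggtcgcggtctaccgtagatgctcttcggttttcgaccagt
vha-17: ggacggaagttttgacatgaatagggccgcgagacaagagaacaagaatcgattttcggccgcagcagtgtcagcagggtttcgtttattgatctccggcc

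Only the distal unc-32 window among these 4 holds any E-box, a CAGCTG at its last 6 bases. Counted on both strands within 50 bp of the summit, CACGTG was at 0 of 6 V0 peaks, against 11.0% of all 7168 peaks. CACATG was also at 0 of 6, against 15.2% of all peaks. One or the other was at 25.3% of all peaks. The longer TCACGTG, which contains CACGTG, was at 0 of 6 and 6.75%. Any E-box, CANNTG, was at 2 of 6 V0 peaks and at 53.3% of all peaks, the second V0 peak being that of vha-3. The GATA-factor sites TGATAA and CTTATC, which overlap each other in a longer form, were at 0 of 6 V0 peaks each, and at 15.1% and 9.84% of all peaks. No match says only that these letters are not in the window.

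The V0 windows were richer in G and C than most peaks. The median GC content over the 101 bp at the 6 V0 summits was 55.4%, with a range of 46.5% to 56.4%, against a median of 43.6% over all peaks. Of all peaks, 8.68% reached the V0 median. The proximal unc-32 peak was the lowest of the 6.

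A pair of entries below the peak threshold carried one of the E-box forms and show what such a site looks like in these windows. The first lies upstream of vha-7 (chrIV:12637495-12637595, plus strand) and holds CACATG. The next lies in an intron of lin-9, within 5 kb of unc-32 (chrIII:8901074-8901174, plus strand), and holds CACGTG and CAAGTG.
vha-7 upstream entry: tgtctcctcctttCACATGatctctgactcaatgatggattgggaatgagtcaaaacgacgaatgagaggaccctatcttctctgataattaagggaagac
lin-9 intron entry: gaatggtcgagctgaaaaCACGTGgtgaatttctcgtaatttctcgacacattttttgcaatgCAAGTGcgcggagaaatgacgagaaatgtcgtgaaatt
The vha-7 entry had a pooled signal of 22.8, with 20.3 in replicate 2 and no entry in replicate 1. The lin-9 entry had a pooled signal of 13.4, with 6.96 in replicate 1 and 7.97 in replicate 2. The same replicate entries also overlapped a neighbouring pooled entry without CACGTG, of pooled signal 7.48, so their values cannot be given to the CACGTG site alone. Like every entry below the threshold, the vha-7 and lin-9 entries were weaker than the weakest thresholded peak of the whole list, at 31.9. The signal is the authors' deposited value per peak, on a scale that is not stated, and is used here only within a list.

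The proteolipids encoded by vha-1, vha-2 and vha-3 are the c subunits that bind the protons. The genes vha-1 (WBGene00006910, chromosome III, 9781254 to 9781763) and vha-2 (WBGene00006911, chromosome III, 9782164 to 9783224) follow each other on the plus strand. Their shared peak (chromosome III, 9780753 to 9780879) had its summit 426 bp upstream of vha-1 and 1336 bp upstream of vha-2. Its signal was 49.0 in replicate 1 and 38.3 in replicate 2, or 43.7 ± 7.57 (SD, n = 2), and its pooled signal was 89.7. It ranked 1988 in replicate 1, 2866 in replicate 2 and 2181 in the pooled list, so it stood in the upper part of each list. It was 127 bp wide, against a median of 350 bp over all peaks. The nearest 5′ end on the other side, 474 bp away, was that of sqv-3, which encodes a galactosyltransferase of glycosaminoglycan synthesis and runs on the minus strand. The annotation gives vha-1, vha-3 and vha-7 no 5′ UTR, so their distances are to the start of the coding model.

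The vha-3 gene (WBGene00006912, chromosome IV, 2315460 to 2315945, minus strand) had a single peak (chromosome IV, 2316862 to 2317211), with its summit 1092 bp upstream. Its signal was 46.2 in replicate 1 and 29.5 in replicate 2, or 37.9 ± 11.8 (SD, n = 2), with 71.0 in the pooled list at rank 3039. Replicate 1 was 1.57 times replicate 2. The summit lay in an annotated 5′ UTR of Y38F2AL.12, a protein-coding gene on the plus strand with a 5′ end 34 bp away, so the peak is closer to that gene than to vha-3. It was the only one of the 6 V0 peaks that was not between genes. The same peak also lay within the window of vha-11, the V1 subunit C gene further along the same strand, at 2470 bp from its 5′ end. The c″ gene vha-4 (WBGene00006913, chromosome II, 7878082 to 7879316, minus strand) had no peak. Its strongest entry, 236 bp upstream, had a signal of 11.0 in replicate 1 and 7.29 in replicate 2, and a pooled signal of 15.8 at rank 12229. That entry was 64 bp from the 5′ end of T01H3.5. The nearest thresholded summit to vha-4, of signal 46.3, was 5172 bp downstream of its 5′ end and outside the gene.

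The a subunit has 4 genes in the worm, which differ in where they are known to act. The gene unc-32 is broadly expressed and prominent in neurons, vha-5 acts in the epidermis and the excretory canal, vha-6 at the apical membrane of the intestine, and vha-7 in the epidermis and uterus. Of these, unc-32 (WBGene00006768, chromosome III, 8905615 to 8911756, plus strand) had both a proximal and a distal peak, and the others had none in the thresholded list. Among the 7168 strongest entries of replicate 2 alone, vha-5 and vha-7 had one too, and among those of replicate 1 alone they had none. The proximal peak (chromosome III, 8905258 to 8905607) had its summit 182 bp upstream of unc-32. Its signal was 43.1 in replicate 1 and 52.5 in replicate 2, or 47.8 ± 6.65 (SD, n = 2), with 92.6 in the pooled list at rank 2076. The 5′ end of a short noncoding RNA gene, ZK637.19, was nearer, at 155 bp. The distal peak (chromosome III, 8904141 to 8904399) was 1319 bp upstream of unc-32 and 165 bp from the 5′ end of lin-9, a gene on the minus strand whose product belongs to the DREAM complex of transcriptional repressors. Its signal was 148 in replicate 1 and 127 in replicate 2, or 137 ± 15 (SD, n = 2), with 275 in the pooled list. At rank 257 it was within the strongest 3.59% of peaks and the strongest of the 6 by a margin beyond the replicate spread. By the nearest protein-coding 5′ end it belonged to lin-9.

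The other a subunit genes had entries below the threshold. At vha-7 (WBGene00006916, chromosome IV, 12640462 to 12650652, plus strand) the strongest lay in an intron, 1115 bp into the gene, with 16 in replicate 1 and 12.5 in replicate 2. Its pooled signal of 29.0 was 616 ranks below the last thresholded peak. Another, 2917 bp upstream of vha-7 and with 20.3 in replicate 2, was nearer to the 5′ end of C26H9A.3, 1866 bp away. At vha-5 (WBGene00006914, chromosome IV, 8303968 to 8307371, plus strand) the strongest lay 1885 bp upstream, at a pooled signal of 28.2. Its replicates differed widely, at 3.83 in replicate 1 (rank 23116) and 26.3 in replicate 2 (rank 4601). The 5′ end of F35H10.5 was nearer to this entry than that of vha-5, at 1315 bp. At vha-6 (WBGene00006915, chromosome II, 11435210 to 11438452, minus strand) the strongest lay 1906 bp upstream, at a pooled signal of 24.1, with 14.6 in replicate 2 and no entry in replicate 1. That entry was 29 bp from the 5′ end of VW02B12L.2, so it was nearer to that gene than to vha-6.

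These entries had the highest −log10 q-value in the deposited pooled list, 4.30, which every thresholded peak and 10011 of the 30000 entries shared. When all such entries were counted, 9 of 10 V0 genes had at least 1 in the window, against 44.7% of all protein-coding genes. Only vha-4 had none. In all, the V0 windows held 28 distinct entries below the threshold, of which 4 were at the highest q-value and 14 had an entry in both replicates. The lin-9 intron entry and its neighbour were both among the 14, through the same replicate entries. The vha-7 gene held 2 of the 4 at the highest q-value, and vha-5 and vha-6 held 1 each. The matching shares over all entries below the threshold were not computed. The counts of 4 and 14 therefore only describe the V0 windows.

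The d and e subunit genes each had a peak close to the 5′ end. The gene vha-17 (WBGene00009882, chromosome IV, 9321801 to 9322525, plus strand) encodes subunit e, and its peak (chromosome IV, 9321279 to 9321628) had a summit 347 bp upstream. The signal was 32.9 in replicate 1 and 49.1 in replicate 2, or 41.0 ± 11.5 (SD, n = 2), with 82.3 in the pooled list at rank 2470. On the other side the 5′ end of F49C12.12, on the minus strand, was 365 bp away, so the summit lay almost midway between both genes. The gene vha-16 (WBGene00016258, chromosome I, 5079910 to 5082279, minus strand) encodes subunit d. Its peak (chromosome I, 5082280 to 5082629) had a summit 176 bp upstream, with 42.9 in replicate 1 and 25.9 in replicate 2, or 34.4 ± 12 (SD, n = 2), and 68.1 in the pooled list at rank 3195. The next 5′ end, that of the focal adhesion kinase homologue kin-32, was 3855 bp away on the other side, so vha-16 was the nearest gene.

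**Figure D2:**
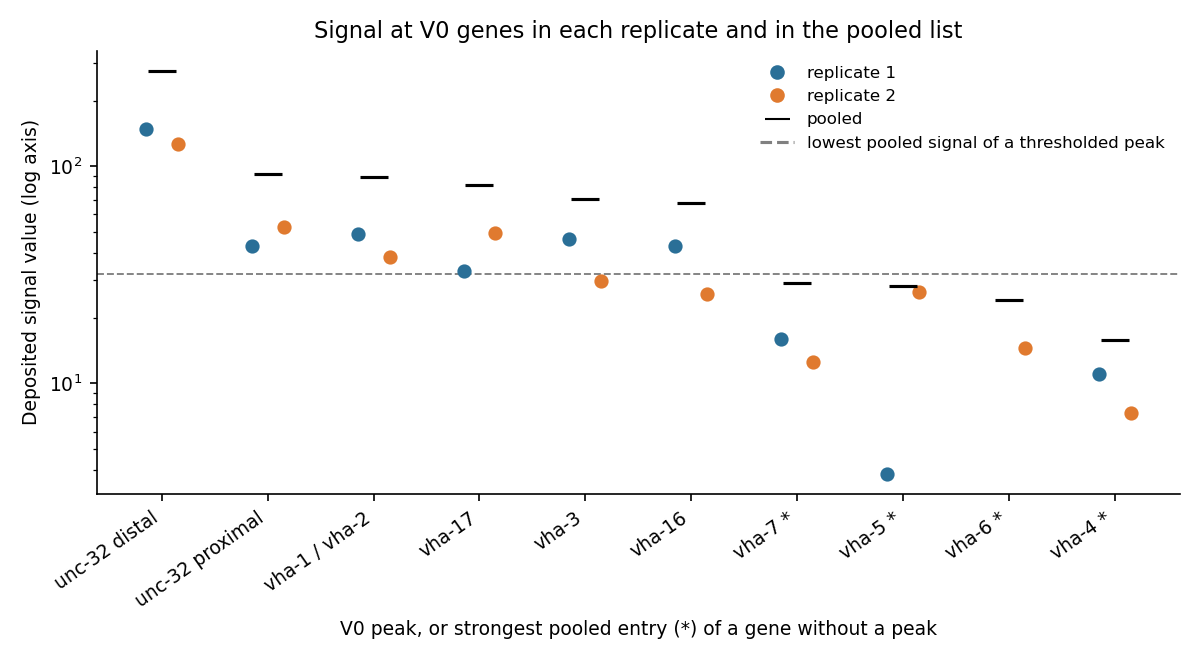
Deposited signal value (log axis) in replicate 1, replicate 2 and the pooled list at the 6 V0 peaks and, marked with an asterisk, at the strongest pooled entry of the 4 V0 genes without a peak. The dashed line is the lowest pooled signal among thresholded peaks, 31.9, and applies to the pooled marks; vha-6 has no point for replicate 1 because that list held no entry there.

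All 6 V0 peaks overlapped one of the 7168 strongest entries of each replicate, as many as there are thresholded peaks. The thresholded list was itself made from the agreement of these replicates, so this count is no separate support. Of all 7168 thresholded peaks, 7118 had an entry of any rank in both replicates. Replicate 1 exceeded replicate 2 at 4 of the 6 and was lower at the proximal unc-32 peak and at vha-17. The ratio of replicate 1 to replicate 2 ran from 0.67 at vha-17 to 1.65 at vha-16. Among the 7118 thresholded peaks with an entry in both replicates, 75.9% had a ratio within that range, and the median was 1.00. Replicate summits lay within 74 bp of the pooled summit at each of the 6. In order of mean replicate signal, the distal unc-32 peak led, followed by the proximal unc-32 peak, the vha-1 and vha-2 peak, vha-17, vha-3 and vha-16. From the second place down, neighbours in this order differed by less than the SD of either. With 2 replicates these SDs are themselves imprecise, and the depth is unknown because the files hold no read counts.

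The V0 peaks stood in the upper part of the pooled list. Each of the 6 lay above the median signal of all peaks, 61.8, and their own median was 86.0. The 6 V0 genes with a peak had a median strongest signal of 86.0, against 76.4 over all genes with a peak. With only the 3584 strongest peaks by pooled signal, the same 6 V0 genes had one, against 23.4% of all protein-coding genes. For V0 this restates that each of the 6 peaks lay above the median. In replicate 2 the vha-3 and vha-16 peaks ranked 4032 and 4705, so they were not among the 3584 strongest entries of that replicate. All other replicate ranks of the 6 peaks were within the strongest 3584. With the 7168 strongest entries of a single replicate, 6 V0 genes had one in replicate 1 alone, against 38.0% of all protein-coding genes. In replicate 2 alone 8 did, against 37.9%, the additional genes being vha-5 and vha-7.

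**Figure D3:**
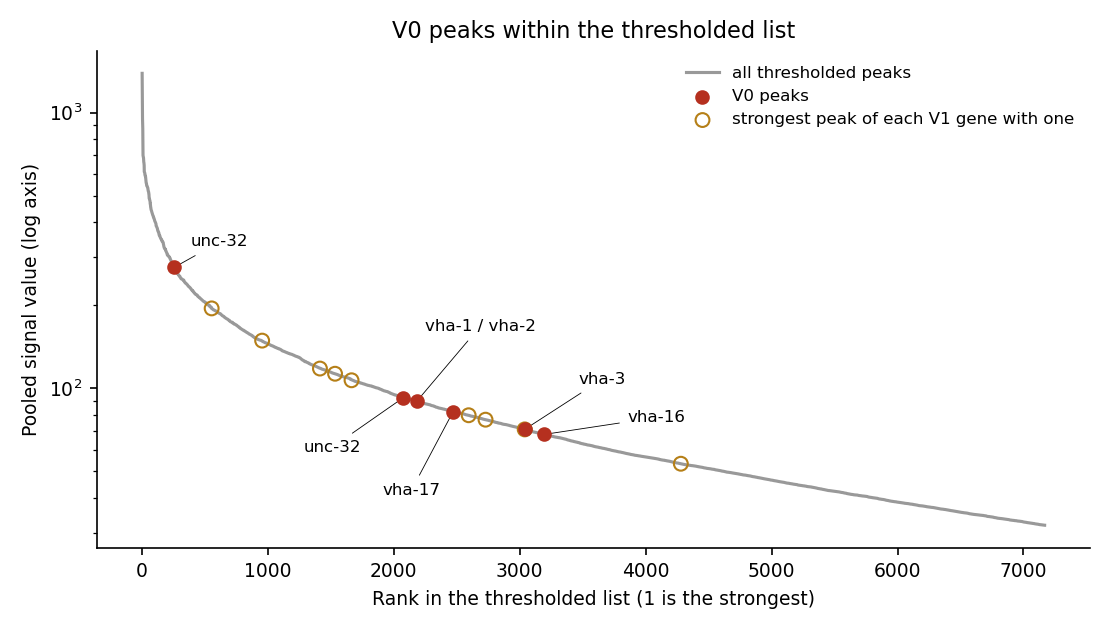
Pooled signal (log axis) against rank for all 7168 thresholded peaks (grey line), with the 6 V0 peaks in red and the strongest peak of each V1 gene that has one as open circles. The distal unc-32 peak stands at rank 257 and the other V0 peaks between ranks 2076 and 3195; the vha-3 point is also that of the V1 gene vha-11.

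Position set vha-2 and vha-3 apart from the other genes with a peak. In a promoter window from 1000 bp upstream to 200 bp downstream of any transcript 5′ end, 4 of 10 V0 genes had a summit (vha-1, vha-16, vha-17 and unc-32), against 20.1% of all protein-coding genes. These 4 were also the V0 genes whose own 5′ end was the nearest protein-coding 5′ end of a summit in their window, against 21.7% of all protein-coding genes. For genes with a peak, the median distance from the gene's 5′ end to the nearest summit was 386 bp over the 6 V0 genes and 892 bp over all genes. The V0 windows were not longer than others, with a median of 6.8 kb against 7.03 kb. They held 0.0802 summits per kb, against 0.0731 per kb over the windows of all protein-coding genes. With 2 kb upstream the density was 0.126 per kb at V0 genes and 0.0716 per kb over all genes, and with the entries of replicate 2 alone it was 0.12 and 0.0731 per kb in that order.

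The 5 V0 peaks outside genes had one more feature in common. Each lay between protein-coding genes that point away from each other, with both 5′ ends within 5 kb. The pairs were lin-9 and unc-32, which flank 2 of the peaks, sqv-3 and vha-1, F49C12.12 and vha-17, and vha-16 and kin-32. Among all 4200 peaks that lay outside genes and within 5 kb upstream of one, 35.3% had such flanks. A summit between such genes cannot be assigned to one of them from these files.

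The rest of the pump served as a comparison. The V1 list held vha-8, vha-9, vha-10, vha-11, vha-12, vha-13, vha-14, vha-15, vha-18 and spe-5. By the same rule 6 of 10 V0 genes and 9 of 10 V1 genes had a peak, against 37.8% of all protein-coding genes. The V1 gene without one was vha-18. In the promoter window the counts were 4 of 10 V0 genes and 6 of 10 V1 genes, against 20.1% of all protein-coding genes. Of the 6 V0 and 11 V1 peaks, 1 was the same, that upstream of vha-3 and vha-11. The strongest V1 peaks were at vha-14, subunit D, with 95.5 in replicate 1 and 97.4 in replicate 2, and at vha-8, subunit E, with 62.5 in replicate 1 and 86.0 in replicate 2. The vha-8 peak was nearer to the 5′ end of C17H12.2 than to that of vha-8. Next were vha-13, subunit A, whose strongest peak of pooled signal 118 was nearer to cept-2, and vha-12, subunit B, with a pooled signal of 113. As in V0, 0 of 11 V1 peaks held CACGTG or CACATG, against 25.3% of all peaks. The median GC content was 49.5% over the 11 V1 peaks, against 55.4% over V0 peaks and 43.6% over all peaks. Of the 8 V1 peaks outside genes, 4 lay between genes that point away from each other, with both 5′ ends within 5 kb, as did all 5 in V0. The V0 windows held 0.0802 summits per kb and the V1 windows 0.153 per kb, against 0.0731 per kb over all protein-coding genes. The median signal was 86.0 over V0 peaks and 104 over V1 peaks, against 61.8 over all peaks. These differences between both sectors were not tested. Of the accessory genes, rbc-1, a rabconnectin homologue that helps pump assembly, had a peak 787 bp upstream (59.1 in replicate 1 and 29.8 in replicate 2), and vha-19 and vha-20, accessory subunit genes, had none.

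**Figure D4:**
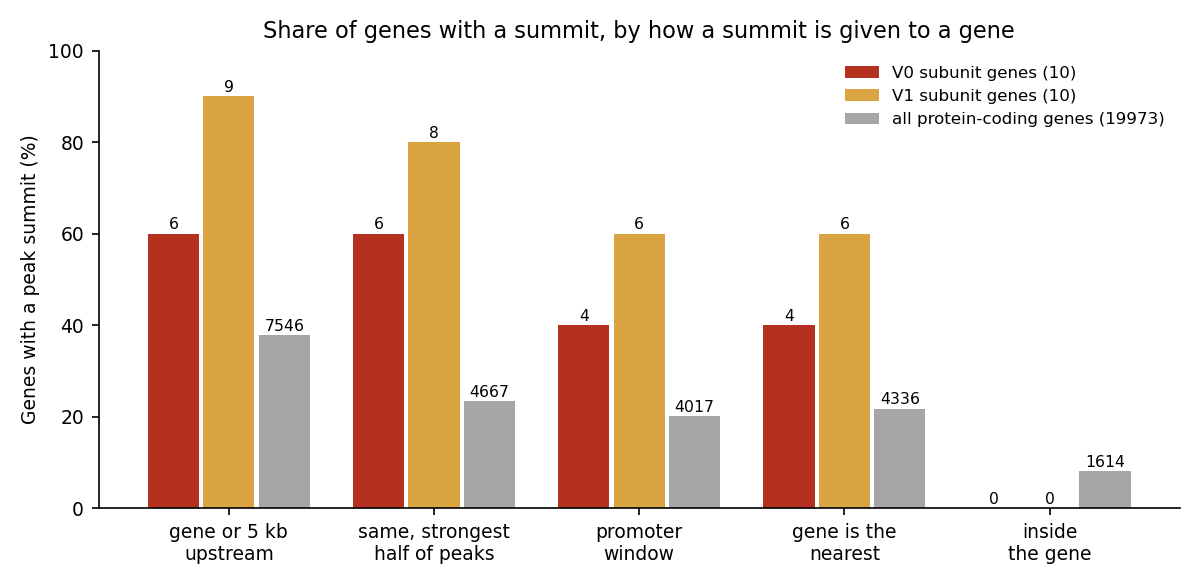
Percentage of genes with a summit under 5 ways of giving a summit to a gene, for the 10 V0 genes, the 10 V1 genes and all 19973 protein-coding genes; numbers above the bars are gene counts. The V0 bars stand at 6, 6, 4, 4 and 0 of 10 genes.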

How the data were processed

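The deposited narrowPeak lists on ce11 were used. Per the labels and the deposited file descriptions, the authors called peaks together with background, against a control alignment, in replicate 1, replicate 2 and the pooled data. They derived 1 thresholded list with the irreproducible discovery rate. The sources used here do not name the peak caller, aligner or threshold. The deposited signal score (column 7) has no stated scale. The deposited −log10 q-value (column 9) was 4.30 for every thresholded peak. All 7168 thresholded peaks were the 7168 strongest of the 30000 pooled entries. Lists on ce10 were not used.

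Summits were joined to WBcel235, the same assembly as ce11, with Ensembl annotation release 115. Peaks in different lists were matched by at least 1 bp of overlap, taking the strongest entry. Sequence came from the RefSeq genome of that assembly. Python 3.11.15 with numpy 2.4.6 and pandas 2.3.3 was used, and assignment was tested on simulated data: of 200 planted summits, 200 were given to their gene among 19973 genes.

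All 10 V0 genes, the flanking genes with the nearest 5′ ends, and the strongest 4 of the other pump genes were named; sqv-3, F49C12.12 and kin-32, the second flanking genes, were chosen after their positions were seen. Of 15 other pump genes tried, 2 names (vma-21 and vma-22) had no match. The V0 genes are listed by their names as subunits, but this family and the other lists were chosen with earlier results of these data known. Sequences were shown for V0 peaks, with the proximal unc-32 peak and the entries below the threshold added after their values were seen; those of vha-3 and vha-16 are not shown. No test over samples is possible with 1 group of 2 replicates.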

Additional observations from a re-analysis of the deposited data

How the results depend on the processing

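The 6 V0 genes with a peak kept their peaks with 2 kb upstream (27.9% of all genes had a summit there) and in either replicate alone. They also kept them with the 3584 strongest peaks, which restates that these peaks lay above the median signal. With 1 kb upstream (23.1% of all genes), the promoter window or the nearest protein-coding 5′ end, 4 remained, without vha-2 and vha-3. With the nearest 5′ end of any biotype, 3 genes and 3 peaks remained, since the proximal unc-32 peak went to the noncoding gene ZK637.19 (17.3% of all genes had a summit by this rule). Counting all pooled entries at the highest q-value, an alternative chosen after seeing the data, gave 10 summits. The density was 0.126 summits per kb with 2 kb upstream, where the same 6 peaks fell in shorter windows. The median signal of V0 peaks was 43.7 to 44.6 in a single replicate, because pooled values are close to the sum of both. The number of peaks with CACGTG or CACATG was 0 within 25 bp, within 100 bp and over the whole peak. No paired analysis was possible because there is 1 group. The files hold no read counts, so a missing entry does not show that signal is absent.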

Other observations

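Of the 28 entries below the threshold in V0 windows, 4 held CACGTG or CACATG. Besides the vha-7 and lin-9 entries, these were an entry with CACGTG in a coding exon of kin-32, 4136 bp upstream of vha-16 (pooled signal 6.24), and an entry with CACATG in the 3′ UTR of vha-17 (pooled signal 6.7). Both of these had an entry in replicate 1 only, at 6.31 near vha-16 and 10.7 at vha-17. The share with CACGTG or CACATG over all entries below the threshold was not computed. The count of 4 therefore does not show that such entries are more frequent at V0 genes. The strongest peaks in the windows of the V1 genes vha-15 and spe-5, at pooled signals of 107 and 77, were nearer to the 5′ ends of T14F9.2 and use-1, genes named after these positions were seen.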
